A study of Mus musculus with 24 samples.

Results

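The genes described here are the extracellular and membrane layer of Wnt signalling: the Wnt ligands, the proteins that let cells secrete them, the Frizzled receptors and their co-receptors, the R-spondins, and the secreted antagonists. The rule for members used symbols and no measured value, but it was set with earlier results of these data known. It was met by 52 of the 20616 genes that the arrays represent. They comprise 19 ligands, 2 secretion factors, 10 Frizzled receptors, 5 co-receptors or other receptors, 4 R-spondins, 6 antagonists that bind the ligands, and 6 Dkk and Kremen genes.

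The study profiled total RNA from mouse cells and embryo tissue on 24 single-colour Agilent arrays, in 12 groups of 2 arrays. EpiSCs, or epiblast stem cells, which grow in culture in a state like the epiblast after implantation, were represented by lines Wt1 and 129C1, established with the original protocol, and by lines 129Ba1, 129Ba2 and BNa17, established with a Wnt inhibitor. The labels do not name the inhibitor used for these 3 lines. Line 129C1 was measured untreated and with IWP2, an inhibitor of the acyltransferase Porcn that keeps cells from secreting Wnt proteins. Mouse embryonic stem cells (mESCs) were represented by untreated lines J1 and R1 and by J1 treated with 2i, the usual name for inhibitors of Mek and of Gsk3, the kinase that marks beta-catenin for degradation. Embryo tissue was E5.5 epiblast, E6.5 epiblast and E7.5 embryonic ectoderm, dissected from embryos, with no strain or pool size given. All cell lines grew on feeder cells, which were removed before the RNA was taken. The labels do not say whether the 2 arrays of a group came from separate cultures or embryos, so p-values measure the spread between these samples, which may be technical.

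A Wnt protein is made ready for secretion by the acyltransferase Porcn and the carrier Wls, then binds a Frizzled receptor together with Lrp5 or Lrp6 and stabilises beta-catenin, or signals through Ror2 or Ryk without it. Sfrp proteins, Frzb and Wif1 bind the ligand, Dkk1 blocks Lrp5 and Lrp6 with the help of Kremen proteins, and R-spondins raise the number of receptors at the surface. In the mouse embryo Wnt3 is required for the primitive streak, and the anterior visceral endoderm secretes antagonists such as Dkk1 that hold the pathway down at the other end of the epiblast.

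Levels are given as log2 signal relative to the 75th percentile of the array, so that 0 is the signal at that percentile, and are compared within a gene and never between genes. The 75th percentile itself ran from 69.3 to 253, 36.7 to 53.2% of probes were well above background, and the 2 arrays of a group correlated at 0.963 to 0.988. BNa17 replicate 1 had both the dimmest percentile and the fewest probes above background, and 24 of the 52 members were above background on both BNa17 arrays against 32 to 36 in the other 4 untreated EpiSC lines. The 8 epiblast and pluripotency markers were above background on both arrays of every group, and the summed signal of 8 naive markers was 1070 to 1260 times the percentile in untreated mESCs and 1.26 to 4.68 in EpiSC lines. Transcripts of 16 fibroblast markers were present in every cell line, with summed signals of 80 to 539 against 7.94 to 18.9 in embryo tissue. At E5.5 the 12 visceral endoderm markers summed to 50.1 in replicate 1 and 171 in replicate 2.

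Receptors were measured almost everywhere and ligands were not. A member counts as measured in a group when both of its arrays were well above background. All 10 Frizzled genes were measured in some group and 9 of them in all 12, while 12 of 19 ligands were measured in a group and only Wnt1 and Wnt5b in all 12. In total 43 members were measured in at least 1 group and 21 in all of them. Wnt2 and Wnt10b were above background on no array, and Wnt2b, Wnt3a, Wnt7a, Wnt8b, Wnt9b, Rspo4 and Wif1 on 1 to 3 single arrays but in no group. The group with most members above background was shared by Wt1, 129C1 and 129Ba1 with 36 each, and 129C1 with IWP2 had 29, J1 34 and J1 with 2i 26. Several genes have probes that disagree: the second probe of Wnt1 was above background on 0 arrays and that of Kremen1 on 2, against 24 for the probe used here in each case.

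**Figure D1:**
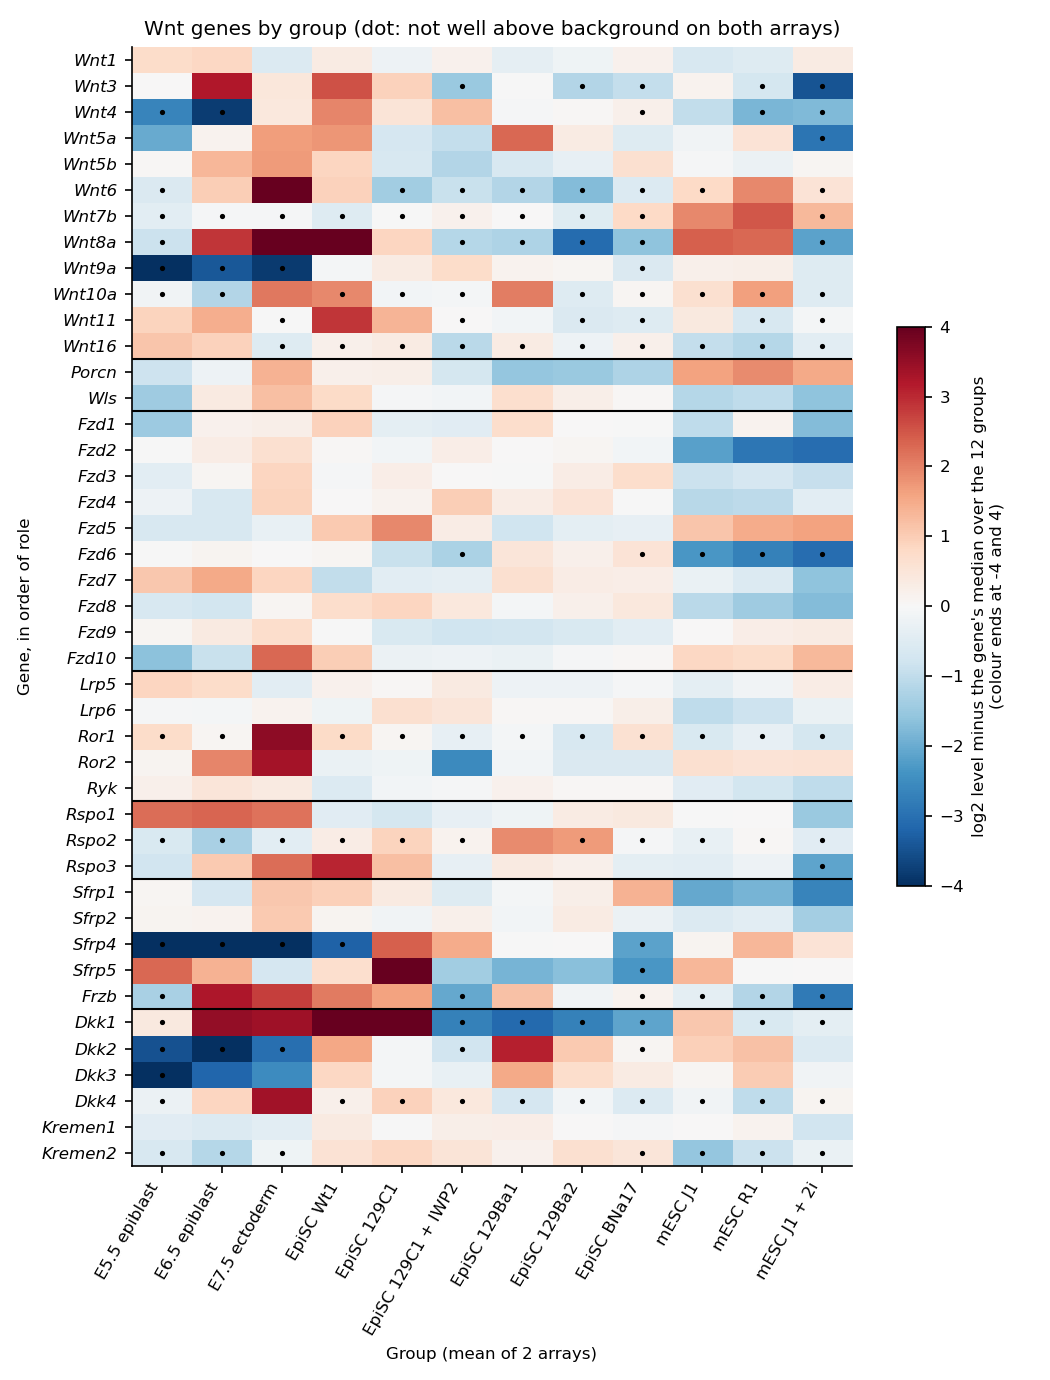
Each row is 1 of the 43 members above background in at least 1 group, in order of role, and each column a group. Colour is the mean log2 level of 2 arrays minus that gene's median over the 12 groups, and a dot marks a group in which the gene was not well above background on both arrays. Fzd2 is low in the 3 mESC columns, Wnt9a and Dkk3 are low in the 3 embryo columns, and Dkk1 is high in Wt1 and 129C1 and low in the other EpiSC columns.

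Some members differed widely across the EpiSC lines and others little. Dkk1, the antagonist of Lrp5 and Lrp6, stood at 2.34 and 2.56 in Wt1 and 1.67 and 1.21 in 129C1, and between -6.16 and -4.26 on the 6 arrays of the Wnt inhibitor lines. Wnt8a, a ligand of the primitive streak, had line means of 2.22 in Wt1 and -1.80 in 129C1, and of -3.87, -5.74 and -4.24 in 129Ba1, 129Ba2 and BNa17. Original-protocol lines also differed from each other: Sfrp5, which binds Wnt ligands, was at 3.86 and 3.38 in 129C1 and at -0.33 and -0.46 in Wt1, and Sfrp4 was at 2.05 and 1.89 in 129C1 and at -4.23 and -3.12 in Wt1. By contrast the line means of Fzd2 ran only from 4.06 to 4.25 over the 5 lines, those of Lrp5 from 1.90 to 2.28 and those of Sfrp2 from 1.18 to 1.74.

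The IWP2 comparison asks what blocking Wnt secretion changes in an EpiSC line that was established without a Wnt inhibitor. With IWP2, 7 of 43 members tested (16.3%) fell and none rose, where a call means an adjusted p below 0.05 over all genes tested and a difference of at least 2-fold in limma; 3.88% of all genes tested were called, 1.39% higher and 2.49% lower. Of the members, 2 were ligands, 2 ligand-binding antagonists, 1 a Dkk, 1 a Frizzled and 1 another receptor. The median difference over the members was -0.26 (log2) against -0.02 over all genes tested. For each member, fewer cells that express it and less of its RNA per cell cannot be told apart in bulk RNA.

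Dkk1 was at 1.67 and 1.21 in untreated 129C1 and at -5.43 and -5.96 with IWP2, where it was not well above background on either array. The untreated arrays were therefore at least 32.9-fold higher (adjusted p = 7.23e-06), with no overlap. Sfrp5, at 3.86 and 3.38 untreated and at -2.52 and -2.39 with IWP2, stayed measurable and fell by 6.08 ± 0.72 (log2 difference ± standard error, adjusted p = 8.03e-05). Frzb, also a ligand-binding antagonist, was at -0.73 and -1.10 untreated and at -3.97 and -5.17 with IWP2. It was not well above background on either treated array, and so at least 6.42-fold lower (adjusted p = 0.00173). In each of these 3 antagonists both treated arrays lay below both untreated ones.

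Among the ligands, Wnt3 was at -1.11 and -1.17 untreated and at -3.24 and -3.85 with IWP2, again not well above background, and was at least 5.30-fold lower (adjusted p = 4.84e-05). Wnt11, a ligand that acts largely without beta-catenin, fell by 1.33 ± 0.25 on the log2 scale (adjusted p = 0.00438), from -1.69 and -1.83 to -3.25 and -2.92, and only 1 of the 2 treated arrays was above background. Other ligands were not called. Wnt5a differed by -0.26 ± 0.49 (adjusted p = 0.870) with overlapping arrays, Wnt5b by -0.52 ± 0.38 (adjusted p = 0.554), and Wnt3a was not well above background on any EpiSC array and was not tested.

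Of the receptors, Ror2, a receptor for Wnt5a, was at 0.60 and 0.48 untreated and at -1.65 and -1.97 with IWP2, a fall by 2.35 ± 0.22 (adjusted p = 9.82e-06). These were the lowest arrays of the series for this gene, and the next lowest was at -0.08. Fzd5 went from 0.56 and 0.61 to -1.26 and -0.83, a fall by 1.63 ± 0.28 (adjusted p = 0.00201), and its second probe gave -2.24. Fzd7 differed by 0.07 ± 0.23 (adjusted p = 0.935) and the co-receptor Lrp6 by -0.13 ± 0.16 (adjusted p = 0.766). Porcn, the enzyme that IWP2 blocks, was at 0.91 and 0.60 untreated and at -0.50 and 0.11 with IWP2, a difference of -0.95 ± 0.32 that was not called (adjusted p = 0.109), and the carrier Wls differed by -0.05 ± 0.21 (adjusted p = 0.951).

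The R-spondin Rspo3 was at 0.50 and 0.11 untreated and at -1.0 and -1.46 with IWP2, a difference of -1.54 ± 0.46 that did not pass the test (adjusted p = 0.0734). Antagonists outside the called set included Sfrp1 and Sfrp2. Sfrp1 differed by -0.89 ± 0.31 (adjusted p = 0.138), Sfrp2 by 0.32 ± 0.22 (adjusted p = 0.513) and Kremen1 by 0.25 ± 0.20 (adjusted p = 0.597). The 36 members that were not called had differences from -1.98, for Wnt8a, to 0.84.

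Treated and untreated 129C1 did not share a slide, so the treatment and the slide cannot be told apart in this comparison. On the slide that holds the treated arrays the only untreated EpiSC line is Wt1, a different line, and against it 17 of 43 members were called (39.5%), 16 lower and 1 higher, where 13.9% of all genes tested were called, 5.89% higher and 8.01% lower. There Dkk1 was at least 66.3-fold lower, Wnt3 at least 16.6-fold and Frzb at least 8.89-fold, and Ror2 fell by 2.27 ± 0.22, but Sfrp5 (-2.06 ± 0.72, adjusted p = 0.0505) and Fzd5 (-0.75 ± 0.28, adjusted p = 0.0634) were not called. In this fit 8 of 16 fibroblast markers, 8 of 10 streak and 7 of 7 endoderm markers were lower too, with fibroblast sums of 233 to 338 in Wt1 and 103 to 161 with IWP2, and their part in the members' falls was not tested. With normexp background correction, added after the data were seen, Wnt3 (-0.73), Frzb (-0.98) and Wnt11 (-0.42) kept their direction and were not called.

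**Figure D2:**
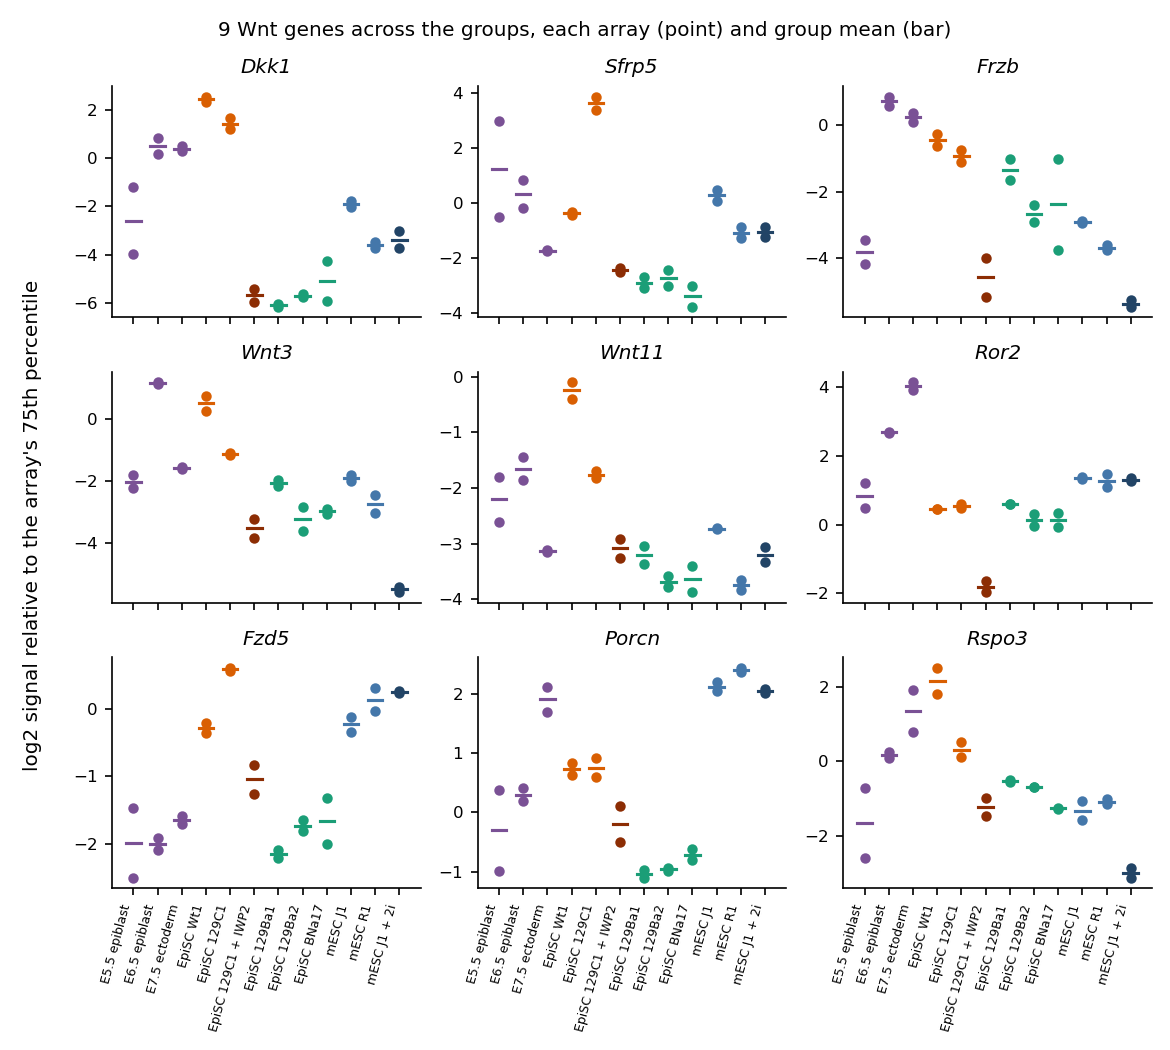
Each panel shows 1 gene, each point an array and each bar the mean of a group's 2 arrays, as log2 signal relative to the array's 75th percentile, with embryo tissue in purple, original-protocol EpiSC lines in orange, IWP2 in brown, Wnt inhibitor lines in green and mESCs in blue. The vertical scales differ between panels, and the lowest points are near background. The IWP2 arrays of Ror2, at -1.65 and -1.97, lie below every other array, and all Wnt inhibitor arrays of Dkk1 and Porcn lie below those of Wt1 and 129C1.

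The comparison of derivation methods set the means of lines 129Ba1, 129Ba2 and BNa17 against those of Wt1 and 129C1. Here 2 of 39 members tested (5.13%) fell, Dkk1 and Porcn, and none rose, where 1.58% of all genes tested were called, 0.541% higher and 1.04% lower. The median difference was -0.22 over the members and 0.07 over all genes tested. Untreated 129C1 is used both here and in the IWP2 comparison, so the 2 sets of differences are not independent and stand side by side only.

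Dkk1 had line means of -6.10, -5.70 and -5.08 in 129Ba1, 129Ba2 and BNa17, not well above background on any of the 6 arrays, against 2.45 and 1.44 in Wt1 and 129C1. It was at least 43.9-fold lower in the Wnt inhibitor lines (adjusted p = 0.00456). In this fit it passed the filter for testing only through Wt1 and 129C1, where it is high. Porcn had line means of -1.03, -0.96 and -0.71 against 0.73 and 0.76, and fell by 1.65 ± 0.20 (adjusted p = 0.0290). The 6 Porcn arrays of the Wnt inhibitor lines, from -1.10 to -0.62, did not overlap with the 4 of the others, from 0.60 to 0.91. The Porcn call did not hold when any of 129Ba1, 129Ba2, BNa17, BNa17 replicate 2 or Wt1 was left out (values of -1.58, -1.62, -1.74, -1.62 and -1.66, adjusted p from 0.0669 to 0.149) or without a filter on dim genes (adjusted p = 0.0555).

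Arrays did not overlap between the kinds of line for 11 of 39 members (28.2%), against 16.1% of all genes tested, and 9 of the 11 were not called. Wnt8a differed by -4.83 ± 1.24 (adjusted p = 0.148), Sfrp5 by -4.64 ± 1.13 (adjusted p = 0.139) and Wnt11 by -2.52 ± 0.47 (adjusted p = 0.0842). Wnt3 differed by -2.45 ± 0.59 (adjusted p = 0.136), Rspo3 by -2.06 ± 0.57 (adjusted p = 0.175) and Fzd5 by -1.99 ± 0.33 (adjusted p = 0.0603). The arrays of 3 members were higher in the Wnt inhibitor lines: Fzd7 by 1.1 ± 0.25 (adjusted p = 0.125), with a second probe at -0.37, Rspo1 by 0.77 ± 0.25 (adjusted p = 0.216) and Ryk by 0.41 ± 0.21 (adjusted p = 0.381). For Ror2, which fell with IWP2, the difference here was -0.21 ± 0.23 (adjusted p = 0.664) with overlapping arrays. For other members no difference passed the test: Wnt5a differed by 0.16 ± 1.05, Wnt5b by -0.22 ± 0.58, Sfrp1 by -0.14 ± 0.48, Sfrp2 by 0.00 ± 0.25, Wls by -0.05 ± 0.34, Lrp6 by -0.12 ± 0.28 and Kremen1 by -0.10 ± 0.22, with adjusted p from 0.845 to 0.997.

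Against 129C1 alone, which shares a slide with all 3 Wnt inhibitor lines, 11 of 38 members were called (28.9%), 9 lower and 2 higher, where 11.1% of all genes tested were called, 5.89% higher and 5.17% lower. The 9 were Dkk1 (at least 30.9-fold), Sfrp5 (-6.64), Sfrp4 (-3.11), Wnt8a (-2.82), Fzd5 (-2.43), Wnt11 (-1.76), Porcn (-1.66), Wnt3 (-1.63) and Rspo3 (-1.14), and the higher ones Dkk2 (1.51) and Fzd6 (1.30). In the same fit 6 of 16 fibroblast markers were higher, and 7 of 7 endoderm and 5 of 6 streak markers lower, and their part in these differences was not tested. This fit has 1 original-protocol line and took single arrays, not lines, as replicates. Its error is the spread between arrays of a line, and it holds no spread between lines of either kind.

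**Figure D3:**
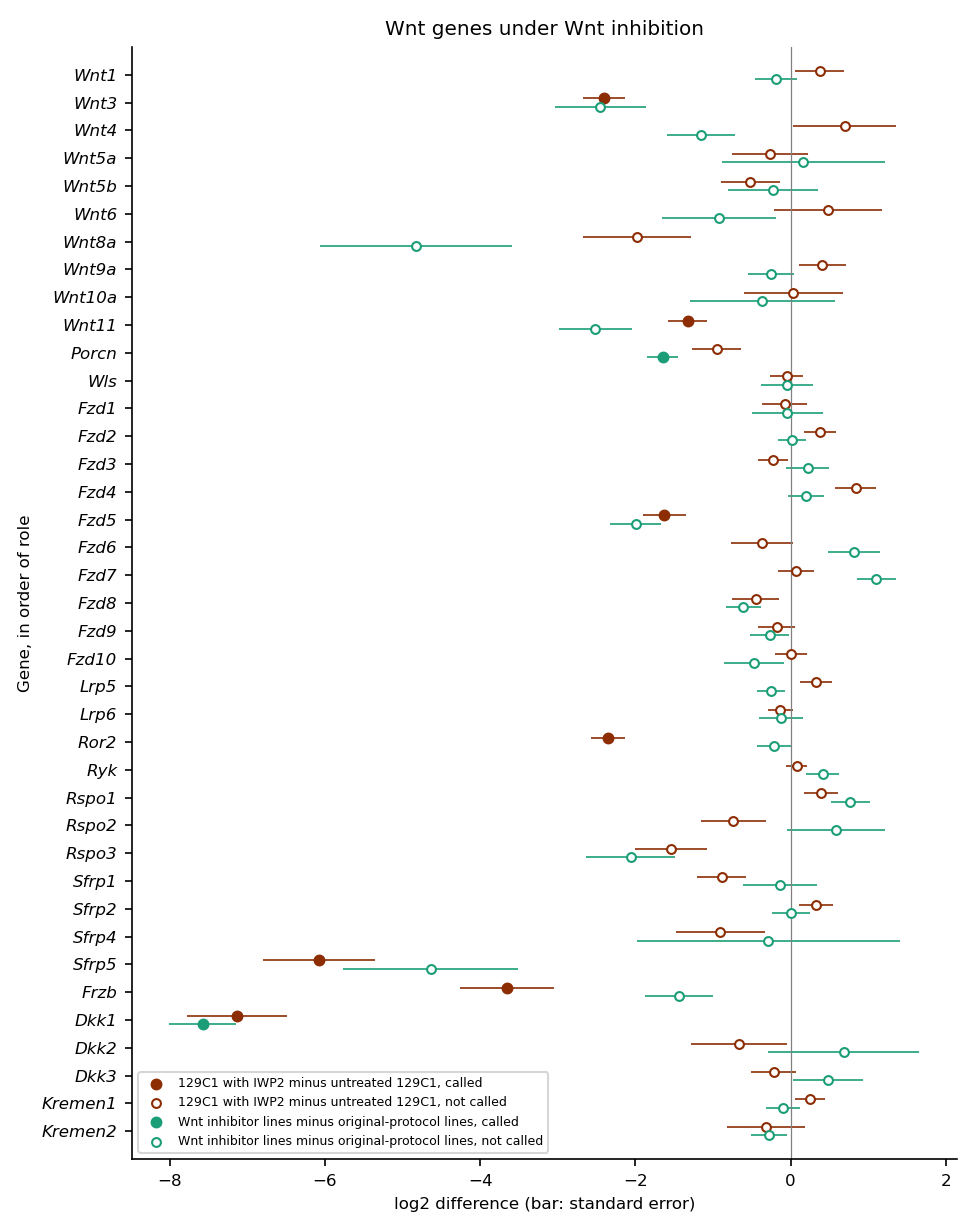
Points are log2 differences and bars their standard errors for the members tested in both comparisons, in order of role, with IWP2-treated minus untreated 129C1 in brown and Wnt inhibitor minus original-protocol lines in green. Filled points passed an adjusted p of 0.05 and 2-fold. Points for members not above background on one side are fitted values, not folds, and the comparisons share the untreated 129C1 arrays. Ror2 lies at -2.35 in brown and -0.21 in green.

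The 7 members that fell with IWP2 have RefSeq transcript starts in the GRCm38.p6 table, and the 250 bases before each start were searched for CTTTGA on both strands, the core of the site that Tcf and Lef factors bind. These sequences are shown because canonical Wnt signalling acts on promoters through those factors, and whether they acted on these members was not tested. CTTTGA, or TCAAAG for the other strand, stood before 13.8% of all 32851 starts and before 6 of the 37 starts of 34 members: those of Dkk1, Frzb, Wnt11, Wnt5b, Fzd1 and Ror1. Of the 7 members that fell, which have 8 starts, 3 held it, and Sfrp5, Wnt3, Fzd5 and Ror2 did not. The share of 13.8% counts starts and not genes. Sequences below run 5′ to 3′ along the gene and end at the base before the start, with matches in capitals, for Dkk1 (chr19:30549497-30549746, minus strand), Frzb (chr2:80447397-80447646, minus strand), Wnt11 (chr7:98834862-98835111, plus strand, the first of its 2 starts) and, as a member with no match, Wnt3 (chr11:103773925-103774174, plus strand).
Dkk1: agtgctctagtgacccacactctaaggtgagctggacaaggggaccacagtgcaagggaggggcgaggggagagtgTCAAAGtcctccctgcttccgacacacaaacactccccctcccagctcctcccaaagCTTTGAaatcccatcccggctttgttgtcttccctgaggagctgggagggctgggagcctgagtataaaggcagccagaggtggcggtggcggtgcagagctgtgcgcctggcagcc
Frzb: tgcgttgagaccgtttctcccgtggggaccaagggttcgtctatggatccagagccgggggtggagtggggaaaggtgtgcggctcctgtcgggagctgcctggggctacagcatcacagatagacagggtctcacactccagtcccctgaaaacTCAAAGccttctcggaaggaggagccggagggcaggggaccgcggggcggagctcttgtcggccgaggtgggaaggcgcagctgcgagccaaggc
Wnt11: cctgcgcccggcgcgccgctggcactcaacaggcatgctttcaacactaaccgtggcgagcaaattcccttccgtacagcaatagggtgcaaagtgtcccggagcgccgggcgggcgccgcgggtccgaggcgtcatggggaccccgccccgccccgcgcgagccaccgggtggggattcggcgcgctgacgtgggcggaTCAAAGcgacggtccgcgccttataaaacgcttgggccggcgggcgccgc
Wnt3: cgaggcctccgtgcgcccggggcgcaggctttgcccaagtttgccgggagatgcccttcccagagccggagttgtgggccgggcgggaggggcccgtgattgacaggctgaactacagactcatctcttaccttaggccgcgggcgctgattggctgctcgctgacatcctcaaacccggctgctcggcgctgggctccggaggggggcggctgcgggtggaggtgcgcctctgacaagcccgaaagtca
The Dkk1 matches begin 174 and 117 bases before the start, that of Frzb 95 and that of Wnt11 50. A match is a description of these letters and no evidence of binding, and no factor binding was measured in this series.

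Other genes of the pathway were read from lists in order of the pathway's layers. Of 17 tested membrane and secreted regulators outside the member list, 2 fell with IWP2 and 2 rose. Those that fell were Cer1, a Nodal antagonist (at least 718-fold), and Lgr5, which binds R-spondins (at least 8.55-fold). Apcdd1 and Sostdc1, both antagonists of Wnt signalling, rose (at least 2.79-fold and at least 1.43-fold). None of 20 cytoplasmic and none of 11 nuclear components was called with IWP2. Of 17 tested target genes 4 fell, T (at least 9.61-fold), Sp5 (at least 11.4-fold), Lgr5 and Ascl2 (-1.93 ± 0.24), and 1 rose, Sp8 (2.26 ± 0.32). The median differences of the 4 lists were -0.03, -0.12, 0.11 and -0.12. In the Wnt inhibitor lines 2 of 17 regulators fell, Cer1 at least 378-fold and Lgr5 by a factor of 6.60 or more, and Sp5 (at least 31.0-fold), Lgr5 and Ascl2 (-2.32 ± 0.26) among 15 targets, with no cytoplasmic or nuclear component called.

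Endoderm markers and part of the streak markers fell under Wnt inhibition. All 7 definitive endoderm markers fell with IWP2 and all 7 in the Wnt inhibitor lines, and their summed signal was 38.0 to 56.3 in Wt1 and 84.2 to 100 in 129C1, against 0.306 to 0.375 with IWP2 and 0.286 to 0.649 in the Wnt inhibitor lines. In 129C1 with IWP2, Sox17, Foxa2, Cer1, Gata6, Gata4 and Cxcr4 were above background on no array. Of the primitive streak and mesoderm markers tested, 5 of 10 fell with IWP2 and 3 of 8 in the Wnt inhibitor lines, and none rose. Streak markers summed to 63.0 to 75.4 in Wt1, 37.3 to 43.1 in 129C1, 2.94 to 3.19 with IWP2 and 5.88 to 11.0 in the Wnt inhibitor lines. Their part in the falls of Dkk1, Sfrp5, Frzb and Wnt3 was not tested. Of 7 neural markers 3 rose and 1 fell with IWP2, and 1 rose and 1 fell in the Wnt inhibitor lines. Of 16 fibroblast markers 1 rose with IWP2, and in the derivation comparison none was called by limma. Within 1 slide, 8 of 16 were lower with IWP2 than in Wt1 (median -1.11) and 6 of 16 were higher in the Wnt inhibitor lines than in 129C1 (median 0.99).

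With 5 EpiSC line means against those of J1 and R1, 12 of 40 members tested (30%) were called, 9 higher and 3 lower in EpiSCs, where 25.1% of all genes tested were called, 12.9% higher and 12.1% lower. The 9 higher members were Fzd2, Fzd4, Fzd6, Fzd8, Lrp6, Sfrp1, Kremen2, Wnt4 and Wls, and the 3 lower ones Porcn, Wnt6 and Wnt7b. The median difference was 0.40 over the members and -0.01 over all genes tested.

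Fzd2 was at 4.21, 4.08, 4.18, 4.25 and 4.06 in Wt1, 129C1, 129Ba1, 129Ba2 and BNa17 and at 2.01 and 1.30 in J1 and R1. All EpiSC arrays lay above all mESC arrays, by 2.50 ± 0.22 (adjusted p = 0.000271), and a second probe gave 3.59. Fzd6 was not well above background on any of the 4 mESC arrays and was at least 2.20-fold higher in EpiSCs (adjusted p = 0.00272). Fzd8 was higher by 1.67 ± 0.28 (adjusted p = 0.00443) and Fzd4 by 1.27 ± 0.20 (adjusted p = 0.00328), both without overlap. The co-receptor Lrp6 was higher by 1.08 ± 0.23 (adjusted p = 0.0112), with line means of 2.58 to 3.36 against 1.74 and 1.90. Sfrp1, an antagonist that binds ligands, was at 1.45, 0.87, 0.44, 0.75 and 1.88 in the EpiSC lines against -1.55 and -1.36 in J1 and R1, higher by 2.53 ± 0.39 (adjusted p = 0.00291). Kremen2 was at least 1.60-fold higher (adjusted p = 0.00259). Like Fzd6, it passed the filter for testing only through EpiSC lines, where it is high.

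The 2 secretion factors moved in opposite directions between EpiSCs and mESCs. Porcn was at 2.12 and 2.41 in J1 and R1, above each of the 5 EpiSC line means, which ran from -1.03 to 0.76, and fell by 2.51 ± 0.58 in EpiSCs (adjusted p = 0.0146). Wls was at 0.23 and 0.36 in J1 and R1 against 1.31 to 2.14 in EpiSC lines, higher by 1.40 ± 0.27 (adjusted p = 0.00738). Among ligands, Wnt7b was lower in EpiSCs by 2.25 ± 0.38 (adjusted p = 0.00427) and above background on only 2 of their 10 arrays. It passed the filter for testing only through J1 and R1, where it is high. Wnt6 was lower by 2.14 ± 0.71 (adjusted p = 0.0490) with overlapping arrays. The Wnt6 call was lost in 15 of 21 fits that leave out an array or line, and without a filter on dim genes (adjusted p = 0.0596). Wnt4 was higher by 1.92 ± 0.56 (adjusted p = 0.0320), also with overlap. Wnt3, Wnt5a, Wnt5b and Wnt8a were not called, with arrays that overlapped between the 2 kinds of cell.

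With only 2 mESC lines, the count fell to 5 without R1 and 7 without J1. Porcn (adjusted p = 0.104 without R1 and 0.0813 without J1), Wls, Lrp6, Wnt4 and Wnt6 lost their calls without either, and Wnt7b (adjusted p = 0.0506) and Fzd8 (adjusted p = 0.0531) without R1, while Fzd2, Fzd4, Fzd6, Sfrp1 and Kremen2 were called in each case. EpiSC and mESC lines shared no slide, so slide and cell kind cannot be told apart. By limma none of the 16 fibroblast markers was called, with a median difference of 0.72, while 4 of 7 neural markers were higher, 4 of 8 visceral endoderm markers lower with 1 higher, and 3 of 5 trophoblast markers lower. Their part in the members' differences was not tested. Of the other pathway genes, 2 of 17 regulators rose, Tpbg (1.12) and Gpc6 (at least 1.06-fold), as did Amer1 (1.24) among 20 cytoplasmic and Bcl9l (1.45) among 11 nuclear components, where Tle4 fell (-1.34). With normexp the count was 5, and Fzd4 (0.76), Fzd6 (0.56), Fzd8 (0.86), Kremen2 (0.30), Wnt4 (0.87), Wnt6 (-0.50) and Wnt7b (-0.64) were not called.

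In 2i, 7 of 43 members tested (16.3%) fell in J1 and none rose, where 13% of all genes tested were called, 6.04% higher and 7% lower. The 7 were 3 ligands, 2 R-spondins, 1 Frizzled and 1 ligand-binding antagonist. The median difference was -0.56 over the members, or -0.49 with members below background on one side set to their bound, and -0.05 over all genes tested. J1 with 2i lay alone on its slide, so the treatment and the slide cannot be told apart.

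Wnt8a was at -0.18 and -0.30 in J1 and at -5.10 and -4.44 in 2i, not well above background there, and so at least 8.92-fold lower (adjusted p = 0.000432). Wnt5a, at -1.08 and -0.39 in J1 and -3.38 and -3.64 in 2i, was at least 6.33-fold lower (adjusted p = 0.00109), and Wnt3, at -1.82 and -2.00 in J1 and -5.42 and -5.60 in 2i, at least 2.81-fold (adjusted p = 1.08e-06). In these 3 ligands no 2i array was well above background. Rspo1 remained measurable and fell by 1.47 ± 0.21 (adjusted p = 0.000286), from 0.11 and 0.39 to -1.31 and -1.12. Rspo3 fell by 1.67 ± 0.46 (adjusted p = 0.0168), and Frzb was at least 1.40-fold lower (adjusted p = 0.00978). Fzd7 fell by 1.33 ± 0.23 (adjusted p = 0.00102), but its second probe gave -0.03.

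The canonical targets T (at least 31.0-fold lower in 2i), Sp8 (at least 2.09-fold), Lgr5 (-1.95 ± 0.50) and Lef1 (-1.37 ± 0.24) were among 7 of 17 target genes that fell, and Znrf3 (1.03 ± 0.24) was the 1 that rose. Primitive streak markers fell as well, 6 of 10, with summed signals of 10.2 to 11.2 in J1 and 1.37 to 1.44 in 2i, as did 3 of 16 fibroblast markers, and their part in the members' falls was not tested. Leaving out 1 array gave Rspo3 from -1.92 to -1.42 and Frzb from -2.54 to -2.35. Of these 4 fits, Rspo3 lost its call in 3 and Frzb in 2, among them for both the fit without J1 replicate 1. With normexp Wnt3, Rspo1, Rspo3 and Frzb were not called (values of -0.75, -0.82, -0.42 and -0.31).

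Between E5.5 and E6.5, 11 of 43 members tested (25.6%) rose in the epiblast and none fell, where 4.86% of all genes tested were called, 2.70% higher and 2.16% lower. The rises covered every role: 4 ligands, Wls, Fzd1, Ror2, Rspo3, Frzb, Dkk1 and Dkk3. The median difference was 0.28 over the members and 0.05 over all genes tested. Both stages lay on 1 slide.

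Wnt3, the ligand required for the streak, was at -1.83 and -2.23 at E5.5 and at 1.20 and 1.14 at E6.5, a rise of 3.20 ± 0.27 (adjusted p = 1.26e-05). Its 2 E6.5 arrays were the highest of all 24. Wnt8a went from -2.36 and -4.62 to 0.32 and 0.12 (3.71 ± 0.70, adjusted p = 0.00415), and its lower E5.5 array was not above background. Wnt5a went from -2.42 and -2.79 to -0.66 and -0.29 (2.13 ± 0.49, adjusted p = 0.0131). Wnt5b went from 1.93 and 0.77 to 2.68 and 2.63 (1.30 ± 0.38, adjusted p = 0.0462). The carrier Wls was higher by 1.78 ± 0.21 (adjusted p = 0.000141), while Porcn differed by 0.61 ± 0.32 (adjusted p = 0.283) with overlapping arrays.

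Ror2 rose by 1.85 ± 0.22 (adjusted p = 0.000143), Fzd1 by 1.61 ± 0.29 (adjusted p = 0.00288) and Rspo3 by 1.81 ± 0.46 (adjusted p = 0.0241). Frzb was not well above background at E5.5, at -4.16 and -3.45, and stood at 0.60 and 0.87 at E6.5, at least 21.4-fold higher (adjusted p = 0.000353). Dkk1 was at -3.98 and -1.21 at E5.5 and 0.19 and 0.85 at E6.5, a rise of 3.12 ± 0.65 (adjusted p = 0.00795). Its lower E5.5 array was not above background. Dkk3 was at least 2.03-fold higher (adjusted p = 0.0405). The Dkk3 call was lost in 7 of 13 alternatives. Its difference was 0.0054 (adjusted p = 0.989) with normexp, and its adjusted p was 0.0509 with the replicate block. Fzd1 (0.83) and Rspo3 (0.96) kept their direction with normexp and were not called either. Sfrp5 did not pass the test at -0.92 ± 0.72 (adjusted p = 0.510), with E5.5 arrays far apart at -0.51 and 2.96.

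Streak markers moved with these members, 8 of 10 higher at E6.5 with summed signals of 126 to 132 against 16.2 to 18.4 at E5.5, and 7 of 17 Wnt target genes rose, among them T (6.38 ± 0.65), Sp5 (5.15 ± 0.52), Nkd1 (2.58 ± 0.30) and Axin2 (1.82 ± 0.48). The part of streak cells in the rises was not tested. The 2 E5.5 arrays differed in visceral endoderm: Afp was at -1.92 and 2.66, Ttr at 0.12 and 3.44 and Cubn at 0.80 and 4.28, and Sfrp5 and Dkk1 were higher in the same replicate, which was not tested. Without E5.5 replicate 1 the count was 9, of which 8 were among the 11, and the calls lost were Dkk1 at 1.73 (adjusted p = 0.0541), Rspo3 at 0.88 (adjusted p = 0.204) and Dkk3 at 0.68 (adjusted p = 0.248). Without replicate 2 it was also 9, of which 8 were among the 11, and those lost were Wnt8a at 2.58 (adjusted p = 0.0501), Wnt5a at 1.95 (adjusted p = 0.0883) and Wnt5b at 0.72 (adjusted p = 0.388). Rspo3, Wnt5a, Wnt5b and Dkk3 each lost the call in 3 of the 4 fits that leave out an array. Leaving out E6.5 replicate 1 or 2 gave 7 and 6, and the 4 arrays alone gave 6, with Wnt3, Frzb, Wls, Ror2 and Fzd1 called in each of these fits.

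The step to E7.5 embryonic ectoderm changed more members in both directions. Of 43 tested, 18 were called (41.9%), 12 higher and 6 lower, where 14.9% of all genes tested were called, 6.30% higher and 8.56% lower, and the median difference was 0.35 over the members and -0.07 over all genes. E7.5 and E6.5 arrays lay on different slides and the dissected tissue differs by label, so slide, tissue and stage cannot be told apart.

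Wnt6, a ligand of surface ectoderm, was at -3.75 and -2.37 at E6.5 and at 1.89 and 1.00 at E7.5, a rise of 4.50 ± 0.70 (adjusted p = 0.000342), and no array of another group exceeded -1.94. Wnt4 was at least 10.3-fold higher (adjusted p = 0.000388), Wnt10a at least 2.48-fold (adjusted p = 0.0018) and the receptor Ror1 at least 9.02-fold (adjusted p = 0.000566), none of them above background at E6.5. Ror1 was above background in no other group, so it passed the filter for testing only through E7.5, where it is high. Fzd10 went from 0.48 and 0.10 to 3.43 and 3.53 (3.19 ± 0.21, adjusted p = 1.28e-07). Wnt8a (2.64 ± 0.70, adjusted p = 0.0119), Dkk4 (2.53 ± 0.65, adjusted p = 0.0104) and Sfrp1 (1.74 ± 0.31, adjusted p = 0.00109) rose too. Porcn (1.61 ± 0.32, adjusted p = 0.0020), Wnt5a (1.55 ± 0.49, adjusted p = 0.0288), Fzd4 (1.53 ± 0.26, adjusted p = 0.000767) and Ror2 (1.35 ± 0.22, adjusted p = 0.000534) complete the 12.

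Wnt3 fell from 1.20 and 1.14 to -1.62 and -1.54, by 2.75 ± 0.27 (adjusted p = 6.75e-06), and so returned near its E5.5 values of -1.83 and -2.23. Wnt11 fell by 1.49 ± 0.25 (adjusted p = 0.000646) and Wnt1 by 1.39 ± 0.32 (adjusted p = 0.00493). The second Wnt1 probe, above background on no array, gave 0.92. The co-receptor Lrp5 fell by 1.16 ± 0.21 (adjusted p = 0.00102) and Sfrp5 by 2.05 ± 0.72 (adjusted p = 0.0451). With normexp Sfrp5 (-1.29) and, among the members that rose, Wnt10a (0.74) kept their direction and were not called. Wnt16 was at least 1.21-fold lower (adjusted p = 0.0410), but its second probe gave 1.54. Dkk1 and Frzb, which had risen by E6.5, differed by -0.12 ± 0.65 and -0.49 ± 0.61 (adjusted p = 0.909 and 0.589) and stayed measurable at E7.5.

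Among the other pathway genes, 4 of 17 targets rose and 1 fell, 1 of 17 regulators rose and 1 fell, 1 of 20 cytoplasmic components rose and no nuclear component was called by limma. Other markers moved over the same step. Visceral endoderm markers were lower for 9 of 12, with 7 above background on no E7.5 array, and streak markers for 6 of 10 with 1 higher. Definitive endoderm markers were lower for 6 of 7, epiblast markers for 3 of 8 and naive markers for 3 of 8. Neural ectoderm markers were higher for 6 of 7, fibroblast markers for 8 of 16 with 1 lower, and trophoblast markers for 4 of 8 with 1 lower. Their part in the members' differences was not tested. Wnt8a, Wnt5a and Sfrp5 lost their calls whichever of the 4 arrays was left out (lowest adjusted p of 0.0501, 0.0743 and 0.0625) and Dkk4 in 3 of the 4 cases.

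**Figure D4:**
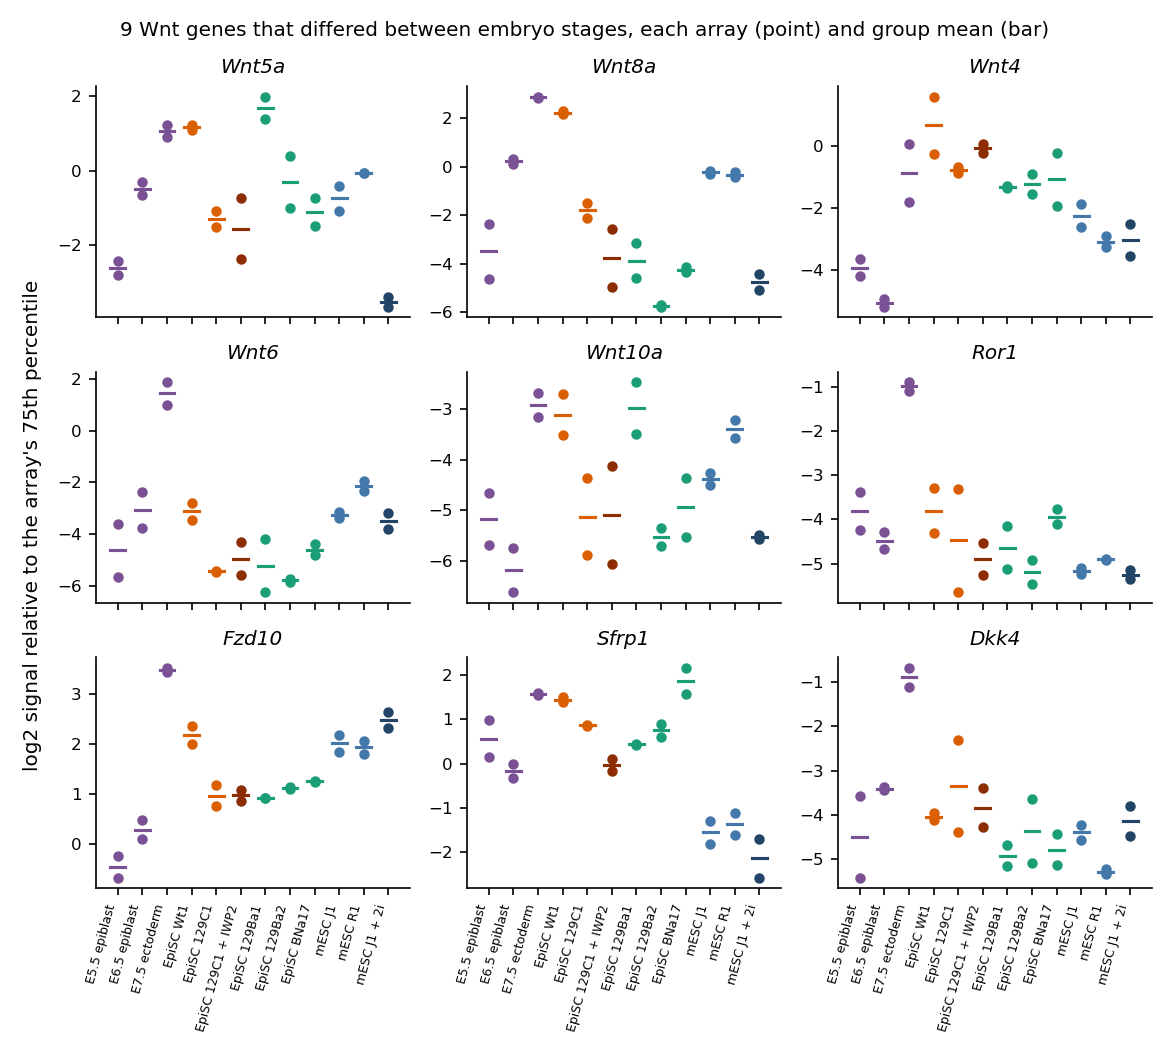
Each panel shows 1 gene, each point an array and each bar the mean of a group's 2 arrays, as log2 signal relative to the array's 75th percentile, with the 3 embryo stages in purple at the left and the same colours for the lines as above. The vertical scales differ between panels and the lowest points are near background. Wnt6, Ror1, Fzd10 and Dkk4 are highest at E7.5, and Wnt5a and Wnt8a are lowest at E5.5 among the embryo stages.

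The last comparison set the 5 EpiSC line means against E6.5 epiblast. Of 42 members tested, 15 were called (35.7%), 10 higher and 5 lower in EpiSC lines, where 22% of all genes tested were called, 12.9% higher and 9.06% lower. The median difference was -0.09 over the members and -0.10 over all genes tested. Lines and embryos shared no slide, so slide and source cannot be told apart.

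The 5 lower members were Wnt3, Rspo1, Ror2, Frzb and Fzd7. Rspo1 was at 2.69 and 2.52 at E6.5 and had line means of -0.20, -0.44, 0.10, 0.59 and 0.65, lower by 2.46 ± 0.30 (adjusted p = 0.000446). Its level was between 2.28 and 2.72 on all 6 embryo arrays and no line array exceeded 0.92. Ror2 was lower by 2.32 ± 0.23 (adjusted p = 0.000142), Wnt3 by 2.95 ± 0.84 (adjusted p = 0.0228), Frzb by 2.28 ± 0.55 (adjusted p = 0.0113) and Fzd7 by 1.55 ± 0.38 (adjusted p = 0.0123), all without overlapping arrays. Dkk1 differed by -3.12 ± 2.34 (adjusted p = 0.319), with 2 lines above and 3 below its E6.5 level.

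Of the 10 higher members 3 were Dkk or Kremen2 genes. Dkk3 was at -2.23 and -2.38 at E6.5 and had line means of 1.68, 0.79, 2.39, 1.57 and 1.18, higher by 3.83 ± 0.39 (adjusted p = 0.000178). Dkk2 was at least 8.65-fold higher (adjusted p = 0.000802) and Kremen2 at least 3.17-fold (adjusted p = 0.0146), neither above background at E6.5. Wnt4 was at least 11.2-fold higher (adjusted p = 0.000797), Wnt9a at least 6.99-fold (adjusted p = 3.22e-05), Sfrp4 at least 9.17-fold (adjusted p = 0.0353) and Rspo2 at least 1.18-fold (adjusted p = 0.00713). Rspo2 was above background on only 3 arrays of the series, both of 129Ba1 and replicate 1 of 129Ba2. It passed the filter for testing only through 129Ba1, where it is high, and was near background in Wt1, 129C1 and BNa17. Dkk2, Kremen2, Wnt9a and Sfrp4 passed it only through EpiSC lines, where they are high. Sfrp1 (1.25 ± 0.38, adjusted p = 0.0291), Fzd8 (1.16 ± 0.32, adjusted p = 0.0203) and Fzd10 (1.00 ± 0.33, adjusted p = 0.0371) stood higher with no overlap between arrays. These 3 lost their calls without E6.5 replicate 2. With normexp Sfrp4 (1.69), Rspo2 (0.69) and Kremen2 (0.62) kept their direction and were not called.

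Of 17 Wnt target genes 7 were lower in EpiSC lines, Axin2 among them (-4.94 ± 0.93, adjusted p = 0.0036), and none was called higher, and 4 of 20 cytoplasmic components were lower. Streak markers were lower for 6 of 10 (median -4.21) and visceral endoderm markers for 8 of 12 (median -3.44), and their part in the lower members was not tested. Fibroblast markers separate the same groups: 15 of 16 were higher in EpiSC lines than at E6.5, with a median difference of 5.49, and their summed signal was 112 to 539 in EpiSC lines against 7.94 and 8.03. At E6.5 Col3a1, Postn, Lum and Fap were above background on no array. The share of feeder RNA in the line levels of Dkk2, Dkk3, Sfrp4, Wnt4 and Wnt9a was not tested. Across lines, 129Ba1 had the highest fibroblast sum, 433 to 539, and the highest line mean of Dkk2 and Dkk3, while Sfrp4 was highest in 129C1, whose sum was 112 to 125. Without E6.5 replicate 1 or 2 the count fell to 7 in each case, with Wnt3 (adjusted p = 0.123 and 0.118), Frzb (0.0658 and 0.0921), Fzd7, Kremen2 and Sfrp4 not called in either.

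**Figure D5:**
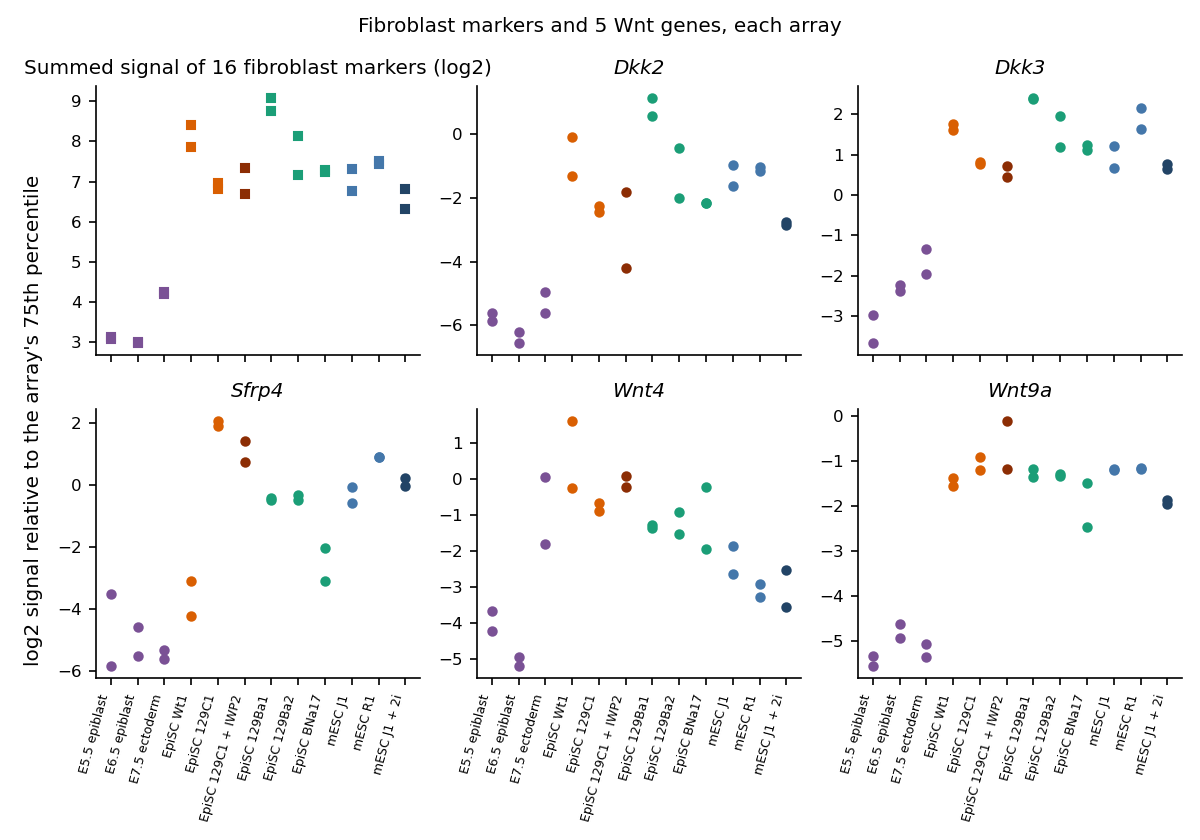
The first panel shows the log2 of the summed signal of 16 fibroblast markers, and the others the log2 level of 5 Wnt genes, all relative to the array's 75th percentile, with 1 point per array and groups in the order of the other plots. The 6 embryo arrays have the lowest fibroblast sums, 7.94 to 18.9, and Dkk2, Dkk3 and Wnt9a are lower on them than on every line array.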

How the data were processed

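Signals were from 24 single-colour Agilent arrays, 2 per group. The intensity used, gProcessedSignal, was background-subtracted by Agilent Feature Extraction 10.5.1.1, per the file headers. The authors deposited a log2 value table of the same arrays, which correlated with each array's own signals at 0.99997 or more and was not used for tests; its column medians ran from -0.35 to 0.78, and its centring is not given in the sources used here. Here log2 intensity minus the array's 75th percentile was taken, control spots were left out, and the probe with the highest mean signal stood for a gene. A gene was tested if both arrays of some group in the fit were well above background. A member dim on one side of a comparison could therefore pass this filter only through groups where it is high. Differences were fitted with limma 3.58.1 in R 4.3.3 and adjusted by Benjamini-Hochberg over all genes tested, two-sided. Treatments and embryo stages used 1 fit over 12 groups, and comparisons of lines used line means, so that a line counts once. In the comparison of EpiSC lines with E6.5, the arrays of all embryo stages entered singly beside the line means. "At least N-fold" sets the brighter group's mean against, per array of the dim group, the higher of its own signal and the lowest signal among probes well above background. The script was tested on simulated data. Named genes were the members called, with a fixed set in the 2 Wnt inhibition comparisons. Members and lists were chosen with earlier results of these data known. Alternatives covered background correction, normalization, filter, probe choice, slide, replicate block and leaving out arrays or lines.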

Additional observations from a re-analysis of the deposited data

Results flagged for a closer look

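Over the 5 untreated EpiSC lines, 39 members were examined for a line far from the others, and 2 stood out, where chance marks about 1 in 20. Fzd10 had a mean of 2.19 in Wt1, with the nearest line at 1.25 and the farthest at 0.92, so the gap took 0.74 of the range. Wnt4 had a mean of 0.68 in Wt1, with the nearest line at -0.77 and the farthest at -1.32, a share of 0.724. The 2 Wnt4 arrays of Wt1 were at 1.60 and -0.24.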

How the results depend on the processing

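Over 85 results and 1648 alternative settings, 1465 kept direction and side of the threshold, 123 lost the call, 26 gained one and 34 changed sign. Normexp background correction, added after the data were seen on median signals because no mean signal column exists (the planned form was not run), gave 4 members called with IWP2, 5 for EpiSC against mESC and 3 for 2i. Within 1 slide the counts were 17 for IWP2 and 11 for the Wnt inhibitor lines, which had 1 without a filter and 9 with line as a random block. With no fold minimum 2i gave 14, and the 4 arrays of E5.5 and E6.5 alone gave 6. Leaving out arrays or lines gave 7 to 8 for IWP2, 1 to 8 for the Wnt inhibitor lines (8 without line 129C1, and 1 without BNa17 replicate 2 or any of 129Ba1, 129Ba2 and BNa17), 5 to 14 for EpiSC against mESC, 6 to 8 for 2i, 6 to 9 for E6.5 against E5.5, 12 to 17 for E7.5 against E6.5 and 7 to 17 for EpiSC against E6.5. The labels do not say that replicate numbers pair samples, and same-numbered arrays deviated together at r = 0.102, 0.0113, 0.221 and 0.0194 in IWP2, 2i, E6.5 against E5.5 and E7.5 against E6.5. With the replicate block the counts were 7, 7, 10 and 18 there. In comparisons of lines this setting also took single arrays in place of line means. Its counts there were 10 for the Wnt inhibitor lines, 17 for EpiSC against mESC and 20 for EpiSC against E6.5. They therefore do not isolate the block. Sign changes touched members that were not called. With IWP2 they were Lrp6 (0.65) and Kremen1 (-0.11) within 1 slide. In the Wnt inhibitor lines they were Sfrp2 with normexp (-0.0396) and quantile (-0.0582) normalization, Lrp6 (0.0049) and Kremen1 (0.11) with the mean of probes, and Wnt5b (0.54), Sfrp1 (0.15), Wls (0.36) and Kremen1 (0.0808) within 1 slide. Leaving out arrays or lines gave, with IWP2, Wnt5a -1.08 to 0.56, Fzd7 -0.0906 to 0.23 and Wls -0.13 to 0.0342. In the Wnt inhibitor lines it gave Wnt5a -1.07 to 1.39, Wnt5b -0.98 to 0.54, Sfrp1 -0.57 to 0.16, Sfrp2 -0.17 to 0.12, Wls -0.46 to 0.36, Lrp6 -0.51 to 0.27 and Kremen1 -0.28 to 0.0808. The cause of these changes was not tested. With 2 arrays a group their number limits the precision, and 9 members were above background in no group.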
